A study of Rattus norvegicus with 4 samples.

Results

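The comparison described here is that of trichostatin A (TSA) alone in senescent rat mesenchymal stem cells, 2 libraries of the 4 in the series. Its members are the library of senescent cells given TSA and the library of senescent cells given vehicle, chosen by their labels, and the genes compared are the 12228 of 34034 listed (35.9%) that had at least 40 counts over the 4 libraries. All cells were labelled as mesenchymal stem cells from femurs of Rattus norvegicus, grew in osteogenic induction medium, and were collected on day 1 after 24 h of treatment. Vehicle alone was given to young cells (the young control) and to senescent cells (the senescent control), and other senescent cells were given TSA, or TSA plus phenamil (both compounds). Each condition was 1 library, and all 4 carry the same batch label. The kit reads the 3' ends of transcripts, so isoforms with a shared end were not told apart. The age and strain of the animals, the doses and the way the cells became senescent were, like any genotype, not stated in the sources used here. In the labels of the samples the compound added to TSA is phenamil, and in the design text it is benzyl ether. The titles of the treated samples read "TSA extracs treat" and "TSA and phenamil extracs treat". What "extracs" stands for, and whether anything besides the compounds was given, the titles do not say.

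TSA inhibits the zinc-dependent histone deacetylases (HDACs), enzymes that take acetyl groups off lysines in histones and in other proteins such as tubulin. Histone acetylation is read by bromodomain proteins and is a mark of active promoters and enhancers, and HDACs act in corepressor complexes (NuRD, SIN3, CoREST, NCoR) that keep genes low. The sirtuins are deacetylases that use NAD and are not TSA's targets. In mesenchymal stem cells, HDAC inhibitors are studied for their effects on osteogenic differentiation, on matrix and contractile genes, and on the cell cycle.

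Levels are given as CPM, counts scaled to library size by TMM (the trimmed mean of M-values) and then to a common total. Where 4 values of a gene stand in a row, their order is young control, senescent control, TSA, both compounds. Ratios are TSA over senescent control, with the 95% exact counting interval in parentheses. A gene is called higher or lower here when that interval excludes 1. With 1 library per condition there is no replicate spread and no p-value. Each ratio therefore compares 2 libraries and not 2 conditions, and the intervals cover counting error only. In bulk RNA, fewer cells of a kind and less RNA per cell cannot be told apart.

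Most genes stood close together in the 2 libraries. The median log2 ratio over the compared genes was -0.0025, with the 5th percentile at -0.64 and the 95th at 0.65. Of 1763 genes with at least 2000 counts in the 2 libraries, 88.8% differed by less than 1.2-fold and 5 by more than 1.5-fold. Intervals excluded 1 for 3725 genes (30.5% of those compared), of which 1922 were higher with TSA (15.7%) and 1803 lower (14.7%). Whole intervals lay past 1.5-fold for 67 genes higher (0.548%) and 64 lower (0.523%). Past 2-fold lay 7 genes higher (0.0572%) and 13 lower (0.106%). The spread between cultures was not measured. When each interval was widened by an assumed coefficient of variation (CV) of 0.1 between cultures, 522 genes were called higher (4.27%) and 512 lower (4.19%). These shares are the background for every count of list members below. They cover compared genes of all levels, and with more counts a smaller difference is called. The background is not matched for level, so shares of lists of abundant genes are not directly comparable with it. The filter adds up all 4 libraries, so a gene of few counts can pass it only through the library where it is high. Such genes below include Ptpn6, Plau and Ndufs6, high with TSA, and Asgr1, Zfp879 and Notch4, high in the senescent control. Among the 4 libraries, TSA was the lowest for 28.6% of the compared genes and the highest for 28.0%.

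**Figure D1:**
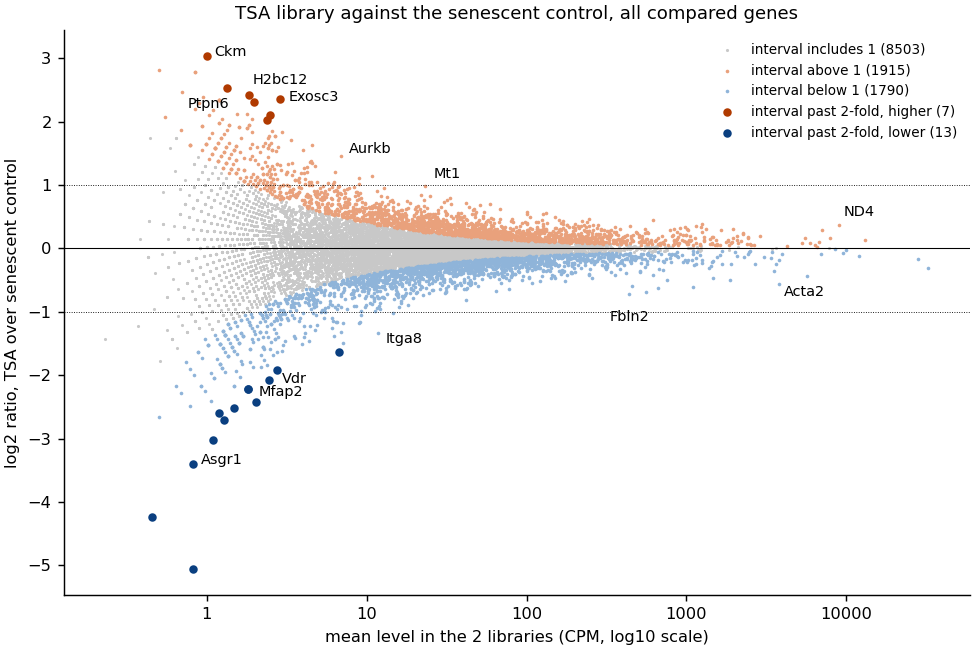
Log2 ratio of TSA over senescent control (vertical axis, log2) against the mean level of the 2 libraries (horizontal axis, CPM on a log10 scale), 1 point per compared gene, coloured by where its 95% counting interval lies. The 7 genes past 2-fold higher and the 13 past 2-fold lower sit at the low-level left side, and abundant genes such as Acta2 and ND4 lie between the dotted 2-fold lines.

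The libraries held 9873894 (TSA) to 11024227 (senescent control) counts, so 3 counts, the limit that a count of 0 allows, stood for 0.270 to 0.302 CPM. Ribosomal protein genes took 8.08% of counts in the senescent control and 8.99% with TSA, and mitochondrial ribosomal RNA took 4.27% and 3.41%. Of 22 mesenchymal stromal markers listed, 17 passed the filter on counts, 5 were higher, 3 lower and 9 neither. Thy1, a surface protein used to define these cells, stood at 759.98, 754, 782 and 803 CPM. Cd44, the hyaluronan receptor, had 1627, 1854, 1592 and 1594 counts, and Eng, another defining surface protein, was low at 18, 22, 20 and 23 counts. Ptprc, the pan-leukocyte marker, was at 0 in both compared libraries, as were the myeloid marker Itgam and the endothelial marker Pecam1. None of the listed macrophage, lymphoid and erythroid markers reached the filter, and their summed levels in the senescent control and with TSA were 1.09 and 3.33 CPM, 1.18 and 0.605 CPM, and 1.45 and 2.72 CPM.

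Genes whose whole interval lay past 2-fold had at most 112 counts in either library. Exosc3, a subunit of the RNA exosome, had 34 counts for young cells, 10 in the senescent control, 48 with TSA and 10 with both compounds, a ratio of 5.33 (2.66 to 11.8). The TSA library was the highest of the 4 for this gene. H2bc12, a histone H2B gene of the replication-dependent cluster, had 20, 6, 31 and 24 counts and a ratio of 5.74 (2.36 to 16.8). Ptpn6, a tyrosine phosphatase known from blood cells, had 10, 7, 33 and 11 counts, at 5.23 (2.28 to 14.02). For Ppfia4, a liprin of synaptic scaffolds, the values were 30, 10, 40 and 31 counts, a ratio of 4.44 (2.18 to 9.96). The senescent control was the lowest of the 4 libraries for all of these, shared in the case of Exosc3 with both compounds. Fxyd6, a regulator of the sodium pump, had 16, 10, 38 and 18 counts, at 4.22 (2.06 to 9.496). A further gene past 2-fold higher has no described symbol.

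Ckm, the muscle creatine kinase, had 12 counts for young cells, 2 in the senescent control, 18 with TSA and 11 with both compounds, a ratio of 9.99 (2.39 to 88.8) on a control value of 2 counts. It is a marker of skeletal muscle, as are Myl1 (a fast myosin light chain) at 11, 4, 20 and 7 counts and Tnnc2 (fast troponin C) at 30, 7, 29 and 26 counts, with ratios of 5.55 (1.86 to 22.3) and 4.6002 (1.97 to 12.4). Of 20 skeletal muscle markers listed, 8 passed the filter, and these 3 were higher, Acta1 (skeletal actin) was lower at 0.669 (0.585 to 0.765), and 4 were neither, around a median log2 ratio of 0.34. Ckm and Myl1 would not have passed the filter without their counts in the TSA library. The number of higher members and the median therefore depend in part on the filter. In the young control the count of Tnnc2 was close to that with TSA, and those of Ckm and Myl1 lay between the 2 libraries compared. Summed over the list, the level was 89.9, 92.2, 84.4 and 97.0 CPM, and most of it was Acta1 and Mef2c. Myod1 and Myog, which define muscle precursors, had at most 3 counts in any library.

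Among the genes past 2-fold lower was Vdr, the vitamin D receptor, a nuclear receptor that acts on bone cell genes, with 58 counts for young cells, 44 in the senescent control, 9 with TSA and 22 with both compounds and a ratio of 0.227 (0.0975 to 0.471). The TSA library was the lowest of the 4, and the one with both compounds was the next lowest. Mfap2, a microfibril protein, had 38, 33, 6 and 19 counts, at 0.202 (0.0691 to 0.488). Scube3, a secreted co-receptor of TGF-beta and BMP signalling, had 19, 33, 6 and 24 counts, at 0.202 (0.0691 to 0.488). The cell adhesion gene Pcdh19, a protocadherin, had 35, 28, 4 and 30 counts, a ratio of 0.159 (0.0404 to 0.453). For Rnf144a, a ubiquitin ligase, the values were 44, 48, 11 and 42 counts, at 0.254 (0.119 to 0.497). In both of these genes the other 3 libraries lay together and the TSA library stood apart below them. Stard9, a mitotic kinesin, had 21, 38, 6 and 13 counts, at 0.175 (0.0606 to 0.418). The zinc finger gene Zfp879 had 8, 23, 3 and 16 counts, a ratio of 0.145 (0.0278 to 0.479), and the hepatic lectin gene Asgr1 had 15, 17, 1 and 11 counts, a ratio of 0.0653 (0.00156 to 0.417). Nfe2l3, a transcription factor related to NRF2, had 10 counts in the senescent control and 0 with TSA, at least 3.002-fold lower against a floor of 3 counts. The remaining 4 genes past 2-fold lower have no described symbol.

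Both metallothionein genes that passed the filter were higher with TSA, also with the assumed CV, and at more counts than the genes above. Metallothioneins are small cysteine-rich proteins that bind zinc and copper, and their genes are switched on by the zinc-sensing factor MTF1 through metal response elements. Mt1 (Entrez 24567) stood at 18.6 CPM for young cells, 15.6 in the senescent control, 30.9 with TSA and 22.1 with both compounds. Its ratio was 1.98 (1.64 to 2.403), and the TSA library lay above the other 3. Mt2A (Entrez 689415) stood at 24.3, 23.4, 39.9 and 22.9 CPM, a ratio of 1.704 (1.45 to 2.001), again with TSA highest and the other 3 close together. Mt3, a brain form, had 0 counts in both compared libraries, and Mt4 had 0 in all 4. Mt1 and Mt2A are similar in sequence, so reads could be split between them. Of 25 zinc transporter and sensor genes listed, 17 passed the filter. None of the 17 was higher or lower (1 higher with scaling by total counts), including Slc30a1, the zinc exporter that MTF1 also switches on, at 13, 18, 21 and 13 counts, and Mtf1 itself at 101, 146, 128 and 124 counts.

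The promoters of this pair are shown because both genes were higher and both windows carry the element. The windows are from RefSeq, build GRCr8, which is not the build of the counts, minus strand, at chr19:10832926-10833225 for Mt1 and chr19:10838659-10838958 for Mt2A, each reading 5′ to 3′ through the gene's start. Capitals mark matches to the core of the metal response element, TGCACNC or TGCGCNC on either strand.
Mt1: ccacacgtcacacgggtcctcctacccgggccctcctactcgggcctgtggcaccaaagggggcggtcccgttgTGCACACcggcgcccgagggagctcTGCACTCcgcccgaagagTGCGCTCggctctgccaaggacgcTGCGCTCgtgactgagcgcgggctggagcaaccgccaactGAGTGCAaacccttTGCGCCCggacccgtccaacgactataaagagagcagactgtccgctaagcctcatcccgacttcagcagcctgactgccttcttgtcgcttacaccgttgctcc
Mt2A: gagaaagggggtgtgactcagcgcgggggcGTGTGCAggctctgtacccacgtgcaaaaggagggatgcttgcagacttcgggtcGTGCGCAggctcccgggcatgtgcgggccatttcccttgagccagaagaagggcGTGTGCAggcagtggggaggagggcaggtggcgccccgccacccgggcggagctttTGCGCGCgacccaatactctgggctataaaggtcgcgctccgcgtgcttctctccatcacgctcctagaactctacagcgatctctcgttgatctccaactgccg
The Mt1 window holds 6 matches and the Mt2A window 4, with 0 overlapping. Of 33469 promoter windows of the same length in the table, 24.2% hold at least 1 match and 0.439% hold 4 or more. A match is a run of letters, not a measured binding site.

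**Figure D2:**
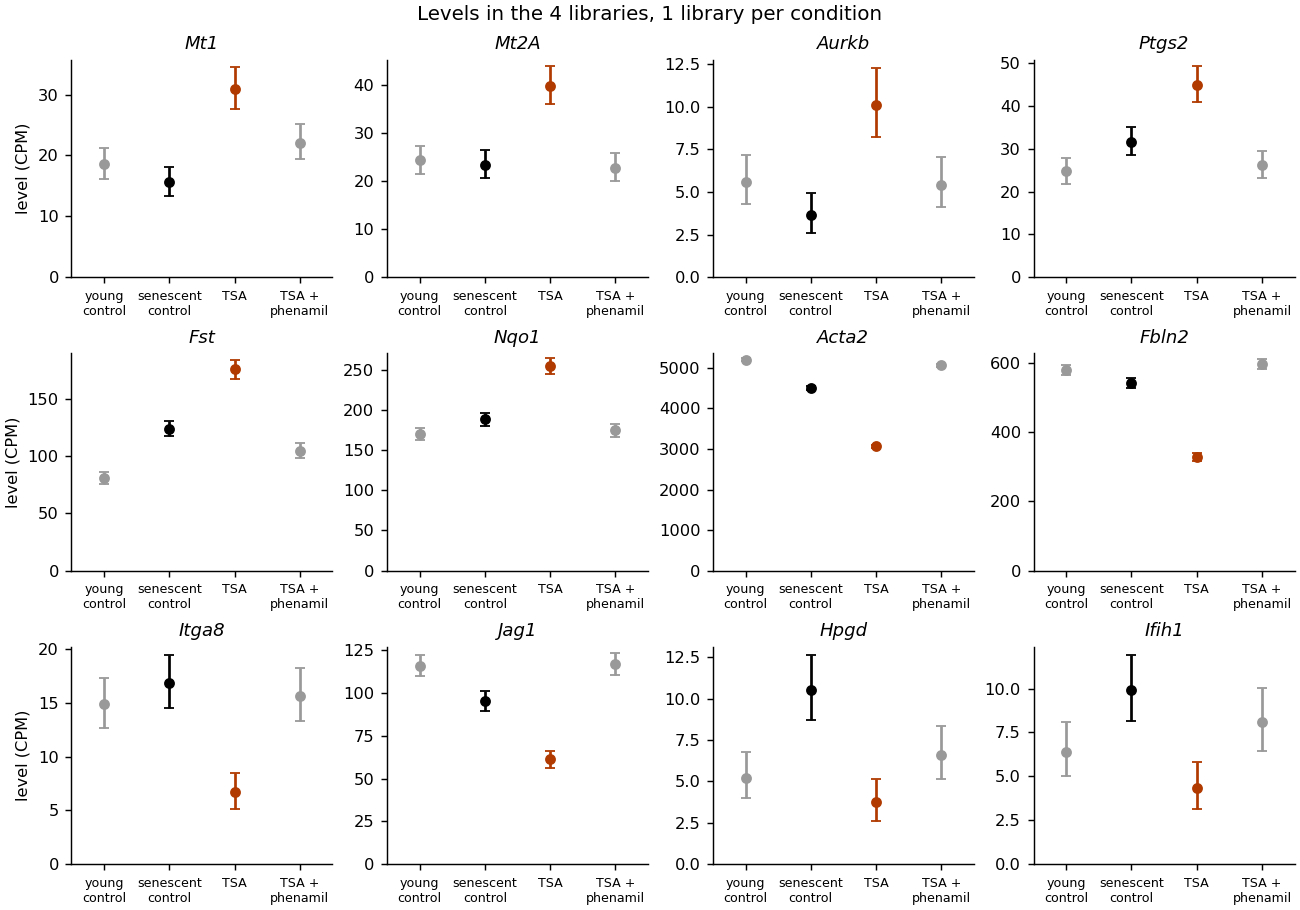
Level of 12 genes (vertical axes, CPM, from 0) in the 4 libraries, 1 point per library, with 95% exact Poisson counting intervals as bars and no replicate error. Mt1, Mt2A, Aurkb, Ptgs2, Fst and Nqo1 are highest with TSA (orange), and Acta2, Fbln2, Itga8, Jag1, Hpgd and Ifih1 are lowest with TSA.

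The genes of TSA's own targets differed little between the libraries. Of 10 HDAC genes past the filter, Hdac1 was higher, Hdac5 lower, and 8 were neither, with a median log2 ratio of 0.0044. Hdac1, a class I enzyme of the NuRD, SIN3 and CoREST complexes, stood at 87.7, 99.8, 112 and 93.6 CPM, a ratio of 1.12 (1.03 to 1.22). Hdac5, a class IIa enzyme, stood at 24.9, 20.3, 15.5 and 23.6 CPM, a ratio of 0.763 (0.618 to 0.941), the lowest of the 4 libraries. Hdac2 and Hdac3, the other abundant class I members, had ratios of 0.952 (0.869 to 1.04) and 1.14 (0.971 to 1.35), and Hdac6, which deacetylates tubulin, 1.14 (0.9098 to 1.42). The widest interval was that of Hdac11, at 1.72 (0.758 to 4.05) on 7, 11, 17 and 20 counts. Of 7 sirtuins, Sirt5 was higher at 1.18 (1.02 to 1.37) and 6 were neither. These shares lie near or below the background.

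Among 31 genes of the corepressor complexes past the filter, 5 were higher, 5 lower and 21 neither, and with the assumed CV 0 were higher and 0 lower. Their median log2 ratio was -0.033, and 0.037 relative to genes of the same span. Sin3a, the SIN3 scaffold, was the largest on the higher side at 1.26 (1.09 to 1.46). The lower genes were Gatad2a at 0.8298 (0.758 to 0.908), Mta1 at 0.831 (0.785 to 0.8798), Chd3 at 0.86996 (0.799 to 0.947), Gatad2b at 0.881 (0.8098 to 0.958) and Chd4 at 0.9005 (0.8597 to 0.943). These encode subunits of NuRD. Other genes of that complex were not called lower: Mta2 at 0.977 (0.873 to 1.09), Mta3 at 1.07 (0.828 to 1.38), Mbd2 at 1.04 (0.963 to 1.13), Mbd3 at 1.07 (0.923 to 1.24) and Rbbp4 at 0.793 (0.479 to 1.298) were neither, and Rbbp7 was higher at 1.096 (1.03 to 1.16). Of 18 acetyltransferase and acetyl-CoA supply genes, 0 were higher and 4 lower (0 lower with the assumed CV). They were Ep300, the p300 coactivator, at 31.9, 23.1, 18.8 and 22.2 CPM and a ratio of 0.813 (0.669 to 0.986), Kat6b at 0.846 (0.753 to 0.9501), Kat7 at 0.862 (0.762 to 0.974) and Acly, which makes acetyl-CoA from citrate, at 0.905 (0.8304 to 0.986). TSA was the lowest of the 4 libraries for 11 of these 18 genes and the highest for 0. Of 22 bromodomain genes 5 were lower (3 with the assumed CV), among them Baz1b at 0.727 (0.675 to 0.782), Brd1 at 0.733 (0.6603 to 0.814) and Trim24 at 0.714 (0.602 to 0.846), and 1 was higher, Trim28 at 1.18 (1.08 to 1.28).

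**Figure D3:**
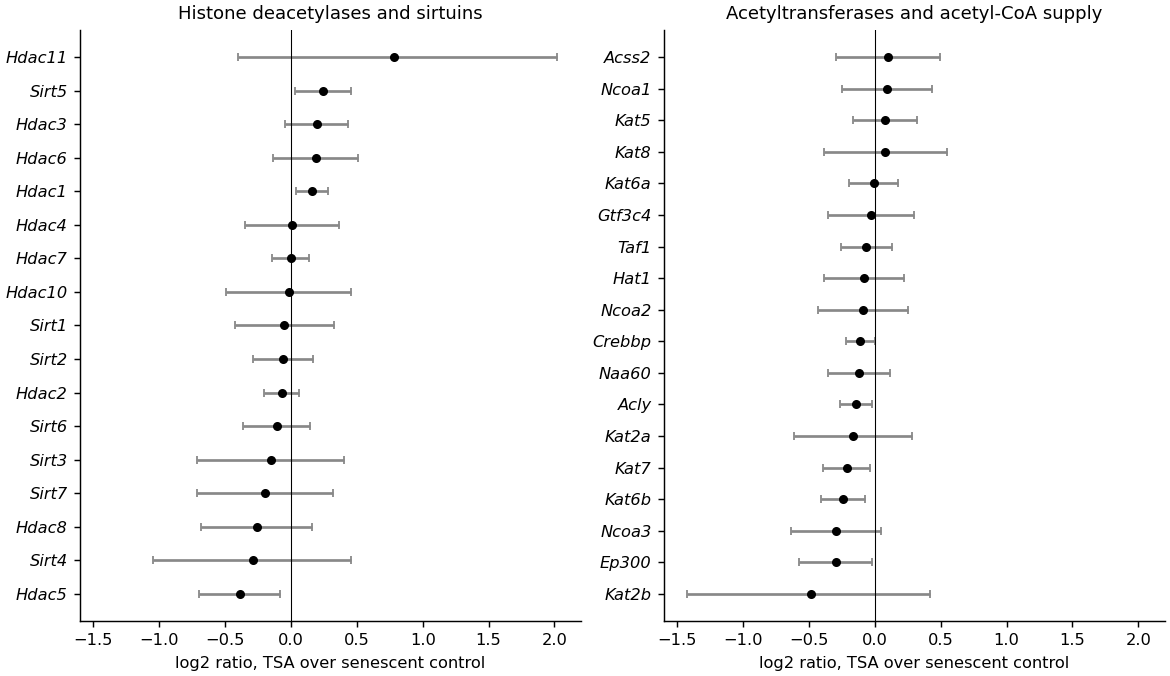
Log2 ratio of TSA over senescent control (horizontal axes) with 95% counting intervals for each histone deacetylase and sirtuin (left) and each acetyltransferase or acetyl-CoA supply gene (right) past the filter. Intervals of Hdac1 and Sirt5 lie above 0 and that of Hdac5 below, and on the right 4 intervals lie below 0 and 0 above.

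Genes known from other cells to be raised by HDAC inhibitors were divided here. Of 28 listed, 24 passed the filter, of which 6 were higher, 4 lower and 14 neither, around a median log2 ratio of 0.012. The assumed CV left 1 higher and 0 lower. Besides Mt1, the higher ones were Klf4, a transcription factor, at 1.32 (1.08 to 1.61), Gadd45a, a stress gene, at 1.19 (1.12 to 1.27), and Ckb, H1f0 and Sat1 at 1.095, 1.095 and 1.06. H1f0, the linker histone used as a mark of HDAC inhibition, stood at 118, 126, 138 and 129 CPM, a ratio of 1.095 (1.02 to 1.18). Rhob, a small GTPase also in that list, was lower at 0.859 (0.788 to 0.936), and Tubb2b, a neuronal tubulin, at 0.761 (0.672 to 0.862). Of 20 genes known to be lowered by HDAC inhibitors, 7 were higher and 2 lower, against 3 and 0 with the assumed CV. Tyms, the enzyme that makes thymidylate, stood at 18.1, 17.6, 28.03 and 21.2 CPM, a ratio of 1.59 (1.32 to 1.92). Myc had a ratio of 1.58 (1.22 to 2.05) and Ccnd1, cyclin D1, 1.11 (1.09 to 1.14). For these 2 lists the members that moved are not all on the side the list's name says.

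Of 12 neuronal genes under the repressor REST past the filter (32 listed), 2 were higher, 1 lower and 9 neither, and the median log2 ratio was 0.18. Uchl1, a neuronal ubiquitin hydrolase, stood at 87.5, 104, 150.4 and 97.4 CPM, a ratio of 1.45 (1.34 to 1.57), with TSA above the other 3 libraries. Syt1, a synaptic vesicle calcium sensor, had 2, 6, 19 and 16 counts, and its ratio was 3.52 (1.35 to 10.8). Without its counts in the TSA library Syt1 would not have passed the filter, so 1 of the 2 higher members depends on them. None of 21 germ line genes reached the filter, and their summed level was 2.36 CPM in the senescent control and 2.62 with TSA. In a list drawn up for histone genes with polyadenylated transcripts, 12 genes passed the filter, and H1f0 and H3f3b were higher. H1f4, a linker histone gene of the replication-dependent cluster that the list also holds, was lower at 0.832 (0.747 to 0.926). Of 17 tubulin and tubulin acetylation genes, 6 were higher and 5 lower, against 2 and 0 with the assumed CV. Tuba4a was the furthest from 1 among the higher ones at 18.9, 22.9, 38.2 and 16.1 CPM and a ratio of 1.67 (1.42 to 1.97). Atat1, the enzyme that acetylates tubulin, had 1.49 (1.15 to 1.93).

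Contractile genes of smooth muscle were lower with TSA. Of 20 past the filter, 13 were lower (65.0%, against 14.7% of all genes), 1 was higher and 6 were neither, with a median log2 ratio of -0.18. TSA was the lowest of the 4 libraries for 16 of the 20. The list holds abundant genes, and the 14.7% is not matched to it for level. With the assumed CV, 2 of the 20 stayed lower, Acta2 and Myh11, against 4.19% of all genes. Acta2 (Entrez 81633), the smooth muscle actin that marks myofibroblasts, stood at 5204 CPM for young cells, 4508 in the senescent control, 3070.0 with TSA and 5062 with both compounds. Its ratio was 0.681 (0.671 to 0.691), and the other 3 libraries lay well above TSA. Myh11, smooth muscle myosin, stood at 52.7, 30.5, 20.9 and 47.6 CPM, a ratio of 0.684 (0.572 to 0.816). Its young and both-compound libraries were above the senescent control as well. Cnn1, calponin, had a ratio of 0.806 (0.744 to 0.873), Lmod1, leiomodin, 0.823 (0.768 to 0.882), and Flna, filamin A, 0.848 (0.827 to 0.86995). The abundant Tagln, Tpm1 and Cald1 were lower by less, at 0.906 (0.892 to 0.9204), 0.903 (0.8801 to 0.926) and 0.901 (0.888 to 0.914). Csrp1, a LIM protein, was the higher member at 1.05 (1.02 to 1.08). A CArG box, the element bound by serum response factor, was found in the promoter window of 1 of 16 contractile genes with a window, Ldb3, and in 1.64% of all windows. Only exact matches to CCWWWWWWGG (W is A or T) inside these windows were searched, so variant or more distant elements would be missed.

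Of 23 genes of serum response factor and YAP signalling, 8 were lower, 1 higher (3 with scaling by total counts) and 14 neither. The assumed CV left 0 lower and 0 higher. The lower ones included the matricellular genes Ccn3 at 0.683 (0.492 to 0.942) and Ccn5 at 0.767 (0.719 to 0.817), the YAP partner genes Tead1 at 0.797 (0.759 to 0.837) and Tead3 at 0.793 (0.695 to 0.905), and Thbs1, thrombospondin 1, at 3677, 4028, 3539.7 and 3270.2 CPM and a ratio of 0.879 (0.866 to 0.891). For Thbs1 the lowest library was that with both compounds. Ajuba, a LIM protein of cell junctions, was higher at 1.298 (1.12 to 1.504).

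Collagen genes showed the same direction. Of 44 listed, 25 passed the filter, of which 16 were lower (64.0%), 3 higher and 6 neither. The median log2 ratio was -0.16. TSA was the lowest of the 4 libraries for 19 of the 25. With the assumed CV, 4 stayed lower, Col12a1, Col15a1, Col5a3 and Col8a1, and 0 higher. Col1a1, the main chain of bone collagen, stood at 30460.1, 29864, 26684 and 33576 CPM, a ratio of 0.894 (0.889 to 0.898), and Col1a2, its partner, had 0.919 (0.912 to 0.926). Col3a1 stood at 4922, 3942, 3333 and 5326 CPM, a ratio of 0.846 (0.833 to 0.858), with the young and both-compound libraries above the senescent control. Larger differences lay in less abundant members. Col12a1, which links fibrils to other matrix, stood at 72.8 CPM for young cells, 53.4 in the senescent control, 30.4 with TSA and 70.3 with both compounds, a ratio of 0.5703 (0.495 to 0.656). Col15a1, of basement membrane zones, had 0.592 (0.439 to 0.792), Col5a3 0.701 (0.655 to 0.749) and Col8a1, a short-chain collagen, 0.711 (0.697 to 0.726). Col6a1 and Col6a3, chains of microfibrillar collagen VI, were higher at 1.103 (1.07 to 1.13) and 1.07 (1.02 to 1.11), while the third chain, Col6a2, was lower at 0.831 (0.8097 to 0.853). Genes that process and crosslink collagen were divided, with 7 higher, 6 lower and 12 neither of 25, and with 1 higher and 0 lower under the assumed CV. Serpinh1, the collagen chaperone, had 0.877 (0.857 to 0.897) and P4ha1, a prolyl hydroxylase, 0.861 (0.841 to 0.881), while Lox, the crosslinking oxidase, had 1.06 (1.04 to 1.08).

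The elastic fibre and microfibril list had a median log2 ratio of -0.28, and of -0.15 over its members with at least 200 counts. Of its 17 genes past the filter, 8 were lower (47.1%), 1 higher and 8 neither, and with the assumed CV 3 stayed lower, Mfap2, Fbln2 and Hmcn1. Fbln2 (Entrez 282583), fibulin 2, stood at 581 CPM for young cells, 543 in the senescent control, 329 with TSA and 598 with both compounds. Its ratio was 0.606 (0.581 to 0.633), with the other 3 libraries close together. Hmcn1, hemicentin, stood at 91.6, 49.6, 31.7 and 73.9 CPM, a ratio of 0.639 (0.554 to 0.735), and Fbn1, the fibrillin of microfibrils, at 817, 577, 445 and 714 CPM, a ratio of 0.772 (0.742 to 0.802). For Hmcn1 and Fbn1 the order was TSA, senescent control, both compounds, young control from lowest to highest. Fbln5 had a ratio of 0.781 (0.704 to 0.866). Ltbp1, which holds latent TGF-beta in the matrix, was higher at 1.18 (1.03 to 1.35), and its relative Ltbp3 lower at 0.823 (0.727 to 0.929).

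Of 16 basement membrane genes, 5 were lower and 3 higher, against 2 and 1 with the assumed CV. Nid1, nidogen, had 0.752 (0.704 to 0.802) and Lama4, a laminin chain, 0.7702 (0.699 to 0.849), while Lamb3, an epithelial laminin chain, stood at 4.87, 10.4, 17.4 and 5.904 CPM, a ratio of 1.69 (1.32 to 2.15). Lamb3 was higher in the senescent control than in the young control and higher again with TSA. The small leucine-rich proteoglycans and matricellular genes went both ways, with 9 higher, 10 lower and 11 neither of 30, and with 1 higher and 3 lower under the assumed CV. On the lower side Postn, periostin, stood at 161, 142, 99.6 and 178 CPM, a ratio of 0.702 (0.648 to 0.761), Ogn, osteoglycin, had 0.745 (0.719 to 0.771) and Dcn, decorin, 0.753 (0.613 to 0.923). On the higher side Thbs4 had 1.42 (1.22 to 1.64), Omd, osteomodulin, 1.301 (1.16 to 1.47) and Prelp 1.24 (1.096 to 1.39). Sparc, a collagen-binding protein of bone matrix, stood at 14964, 12420.1, 13658 and 16049 CPM, a ratio of 1.0997 (1.09 to 1.11).

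Integrins are the receptors through which cells hold this matrix. Of 17 past the filter, 9 were lower (52.9%), 0 higher (1 with scaling by total counts) and 8 neither, and their median log2 ratio was -0.18. The 5 of low count, Itga2, Itga4, Itga8, Itga9 and Itga10, stayed lower with the assumed CV. Itga8 (Entrez 364786), a chain of an RGD-binding receptor of contractile stromal cells, stood at 14.9 CPM for young cells, 16.9 in the senescent control, 6.65 with TSA and 15.6 with both compounds, a ratio of 0.394 (0.293 to 0.524). The other 3 libraries lay together for this gene. Itga4, a chain of the receptor for Vcam1 and fibronectin, had 47, 22, 5 and 28 counts and a ratio of 0.252 (0.0747 to 0.683). Itgb1, the shared beta chain and the most abundant member, stood at 1650.0, 1564, 1290.3 and 1541 CPM, a ratio of 0.825 (0.806 to 0.844). The chains of collagen receptors, Itga2 at 0.394 (0.179 to 0.805) and Itga10 at 0.384 (0.158 to 0.846), had few counts, and in both of them the library with both compounds was as low as TSA alone.

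**Figure D4:**
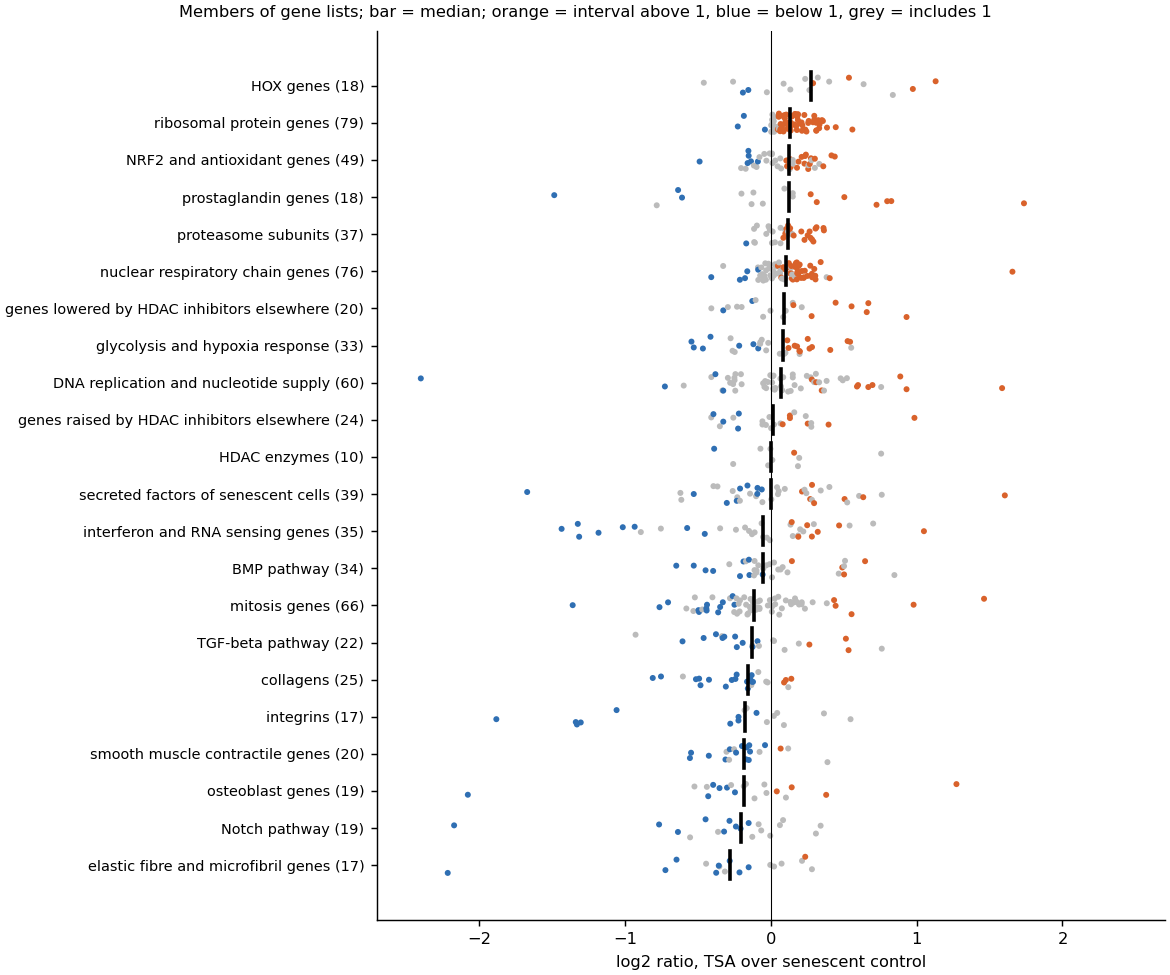
Log2 ratio of TSA over senescent control (horizontal axis) for members of 22 gene lists chosen among those described, 1 point per gene past the filter with the number in brackets, vertical jitter for legibility only. Bars are medians, running from -0.28 for elastic fibre genes to 0.27 for HOX genes. Orange points have counting intervals above 1 and blue points below 1.

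TGF-beta signalling drives contractile and matrix genes in stromal cells. Of 22 of its genes, 10 were lower (45.5%), 3 higher and 9 neither, and with the assumed CV 2 stayed lower and 1 higher. Among ligands, Tgfb2 stood at 1910.5 CPM for young cells, 1703 in the senescent control, 1238 with TSA and 1760.4 with both compounds, a ratio of 0.727 (0.7105 to 0.744). Tgfb3 had 0.795 (0.761 to 0.831) and Inhba, the activin A subunit, 0.771 (0.735 to 0.808), while Tgfb1 was higher at 22.5, 19.9, 28.4 and 20.7 CPM, a ratio of 1.43 (1.19 to 1.71). Among receptors, Tgfbr3, the co-receptor betaglycan, was higher at 1.45 (1.06 to 1.999). Of the pathway's induced genes, Pmepa1, a feedback inhibitor, had 0.844 (0.828 to 0.861) and Skil 0.851 (0.759 to 0.953).

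BMP signalling drives osteoblast differentiation. Of 34 BMP pathway genes, 4 were higher, 9 lower and 21 neither, whereas 3 were higher and 0 lower with the assumed CV. Their median log2 ratio was -0.053. Fst, follistatin, a secreted trap for activins and some BMPs, stood at 80.7 CPM for young cells, 124 in the senescent control, 176 with TSA and 105 with both compounds, a ratio of 1.42 (1.32 to 1.52). Id1, an early BMP target, stood at 71.9, 87.98, 124 and 73.2 CPM, a ratio of 1.405 (1.29 to 1.53), with TSA the highest and the young control and both compounds the lowest. Atoh8, another target, had 1.57 (1.17 to 2.12). Bmp4 was higher at 1.11 (1.05 to 1.16), whereas Bmp3 was lower at 0.692 (0.531 to 0.899), Bmp6 at 0.759 (0.587 to 0.978) and the receptor gene Bmpr2 at 0.864 (0.798 to 0.935). Chrd, the BMP antagonist chordin, had 39, 63, 36 and 31 counts and a ratio of 0.635 (0.409 to 0.971).

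Of 34 osteoblast genes listed, 19 passed the filter, of which 6 were lower, 4 higher and 9 neither, around a median log2 ratio of -0.19. The assumed CV left 2 lower and 1 higher. Besides Vdr, the lower members were Cdh11, the osteoblast cadherin, at 0.743 (0.669 to 0.824), Tnfrsf11b, the decoy receptor osteoprotegerin, at 298, 279, 212 and 258 CPM and a ratio of 0.761 (0.719 to 0.804), and Mgp, matrix Gla protein, an inhibitor of calcification, at 3682, 3979.7, 3119 and 3963 CPM and a ratio of 0.784 (0.773 to 0.795). Slc20a2, a phosphate transporter, had 0.812 (0.680003 to 0.968) and Enpp1, which makes the mineralization inhibitor pyrophosphate, 0.844 (0.813 to 0.875). Mgp, Tnfrsf11b and Cdh11 were lowest with TSA among the 4 libraries, Slc20a2 in the young control, and Enpp1 with both compounds. On the higher side, Ankh, a pyrophosphate exporter, had few counts at 22, 8, 18 and 13 counts and a ratio of 2.498 (1.03 to 6.64), and Spp1, osteopontin, was at 1.03 (1.02 to 1.04). The osteoblast regulator Runx2 had 297, 216, 171 and 248 counts, with a ratio of 0.879 (0.715 to 1.08), and Alpl, alkaline phosphatase, had 194, 212, 158 and 227 counts, with a ratio of 0.828 (0.669 to 1.02). Neither interval excluded 1. Sp7 (osterix) and Ibsp (bone sialoprotein) were at 0 counts in all 4 libraries, and Bglap (osteocalcin) had at most 2.

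Notch signalling passes between neighbouring cells through ligands and receptors on their surfaces. Of 19 of its genes past the filter, 9 were lower (47.4%), 0 higher and 10 neither. The median log2 ratio was -0.21. Jag1, Notch3 and Notch4 stayed lower with the assumed CV. The ligand gene Jag1 stood at 116 CPM for young cells, 95.2 in the senescent control, 61.2 with TSA and 117 with both compounds, a ratio of 0.643 (0.581 to 0.711). Among receptors Notch3, which is known from mural cells, stood at 29.8, 15.98, 9.38 and 31.05 CPM, a ratio of 0.587 (0.451 to 0.759), with the young and both-compound libraries at almost equal levels. Notch2 had 0.822 (0.744 to 0.908), and Notch4 had 6, 27, 5 and 9 counts and a ratio of 0.206 (0.0618 to 0.542). The nuclear effector Rbpj had 0.866 (0.804 to 0.933), and the targets Hes1 and Hey1 had 0.847 (0.786 to 0.913) and 0.732 (0.556 to 0.961). Of 32 WNT pathway genes, 6 were lower, 3 higher and 23 neither, against 2 and 2 with the assumed CV. The feedback inhibitors Nkd1 and Nkd2 had ratios of 0.4802 (0.249 to 0.885) and 0.421 (0.1898 to 0.868), the receptor gene Fzd1 was higher at 1.38 (1.21 to 1.59), and Fzd2 and Fzd8 were lower at 0.797 (0.722 to 0.879) and 0.797 (0.713 to 0.891).

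Antioxidant genes, many under the factor NRF2, were higher with TSA more often than lower. Of 49 past the filter, 20 were higher (40.8%, against 15.7% of all genes), 6 lower and 23 neither. Their median log2 ratio was 0.13. TSA was the highest of the 4 libraries for 26 of them. With the assumed CV, 2 of the 49 stayed higher, Nqo1 and Hmox1, and 1 lower, Keap1. The share higher was then near the 4.27% of all genes. Nqo1, the quinone reductase that is a standard NRF2 target, stood at 169.9 CPM for young cells, 188 in the senescent control, 255 with TSA and 175 with both compounds, a ratio of 1.36 (1.28 to 1.44). Hmox1, heme oxygenase 1, stood at 234, 204, 272 and 229 CPM, a ratio of 1.33 (1.26 to 1.41). Gsta1, a glutathione transferase, had 1.28 (1.21 to 1.36), Srxn1, sulfiredoxin, 1.23 (1.09 to 1.398), Pgd, of the pentose phosphate pathway, 1.204 (1.16 to 1.25) and Txn1, thioredoxin, 1.19 (1.16 to 1.23). Among the lower members were Keap1, which holds NRF2 in check, at 17.1, 25.3, 18.05 and 20.7 CPM and a ratio of 0.712 (0.587 to 0.863), and Txnrd1, thioredoxin reductase and another NRF2 target, at 0.896 (0.8303 to 0.966). The antioxidant response element TGACNNNGC, on either strand, was in the promoter windows of 12 of 41 of these genes with a window and in 12.1% of all windows. It was in those of Gsta1 and Txnrd1 and not in that of Nqo1. Sites outside the windows were not searched, so a gene without a match can still carry the element elsewhere.

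In the prostaglandin pathway, 7 of 18 genes were higher (38.9%), 3 lower and 8 neither, and with the assumed CV 4 stayed higher and 2 lower. The median log2 ratio was 0.12, and -0.054 over members with at least 200 counts. At the entry of the pathway, Pla2g4a, the phospholipase that frees arachidonic acid, stood at 18.5, 14.1, 23.3 and 15.4 CPM, a ratio of 1.65 (1.34 to 2.04). Ptgs2, the inducible cyclooxygenase, stood at 24.7 CPM for young cells, 31.7 in the senescent control, 44.96 with TSA and 26.1 with both compounds, a ratio of 1.42 (1.23 to 1.64), and Ptgs1, the constitutive form, had 19, 33, 53 and 21 counts and 1.78 (1.13 to 2.84). TSA was the highest of the 4 libraries for these 3 genes. The receptor genes Ptger4 and Ptger1 had 1.75 (1.05 to 2.98) and 3.55 (1.24 to 12.4). Hpgd, the dehydrogenase that inactivates prostaglandins, stood at 5.23, 10.5, 3.73 and 6.57 CPM, a ratio of 0.354 (0.238 to 0.517). It was highest in the senescent control and lowest with TSA. Of 16 purinergic genes, 3 were higher and 3 lower, against 1 and 2 with the assumed CV. Nt5e, the ecto-nucleotidase CD73 that makes adenosine and a stromal marker, had 1.52 (1.19 to 1.94), and P2ry6, a receptor for UDP, stood at 6.76, 9.896, 3.93 and 8.67 CPM with a ratio of 0.397 (0.268 to 0.578).

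Cell cycle genes did not go in a common direction. Aurkb (Entrez 114592), the kinase of the chromosomal passenger complex that phosphorylates histone H3 in mitosis, had 62 counts for young cells, 40 in the senescent control, 100 with TSA and 57 with both compounds. Its ratio was 2.78 (1.91 to 4.11). It ranked at the top, by the interval bound nearest 1, of genes with a described symbol and at least 100 counts in the 2 libraries. Of 66 mitosis genes, 13 were lower (19.7%), 5 higher and 48 neither, around a median log2 ratio of -0.11. The assumed CV left 3 lower and 2 higher. Cdca8, another subunit of Aurkb's complex, was lower at 49.4, 59.01, 46.98 and 54.5 CPM and a ratio of 0.796 (0.705 to 0.898). Plk1, a mitotic kinase, had 0.737 (0.633 to 0.857), Mki67, the proliferation marker, 0.786 (0.671 to 0.919) and Ncapg, a condensin subunit, 0.588 (0.465 to 0.7399). Besides Aurkb, the higher ones were Cdc25c at 1.99 (1.18 to 3.43), Kif11 at 1.47 (1.08 to 2.02), Ccna2 at 1.36 (1.03 to 1.7999) and Racgap1 at 1.35 (1.11 to 1.65).

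Of 60 DNA replication and nucleotide supply genes, 10 were higher (16.7%), 4 lower and 46 neither, so the share higher was near the background. With the assumed CV, 7 stayed higher and 1 lower. Gins2, a subunit of the replicative helicase, had 31, 13, 36 and 21 counts, a ratio of 3.07 (1.59 to 6.32). Gmnn, the licensing inhibitor geminin, had 1.86 (1.24 to 2.82), Ccne2, cyclin E2, 1.52 (1.18 to 1.95), Mcm5, a helicase subunit, 1.51 (1.12 to 2.05) and Pcna 1.27 (1.097 to 1.48). On the lower side, Rrm1, the large subunit of ribonucleotide reductase, had 0.768 (0.658 to 0.896) and E2f8, a repressor of cell cycle genes, had 20, 20, 3 and 14 counts and 0.167 (0.0317 to 0.562). The senescence and cell cycle inhibitor list had 3 higher, 2 lower and 18 neither of 23, and 0 of either with the assumed CV. Cdkn2a, which encodes p16 and p19, had 68, 56, 76 and 74 counts, a ratio of 1.51 (1.05 to 2.17). Cdkn1a, which encodes p21, stood at 237, 235, 225 and 203 CPM, with a ratio of 0.961 (0.908 to 1.02) whose interval includes 1. Lmna and Glb1, the gene of lysosomal beta-galactosidase, were lower at 0.888 (0.857 to 0.919) and 0.897 (0.814 to 0.988).

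Secreted factors associated with senescent cells were divided as well, with 7 higher, 9 lower and 23 neither of 39, and 2 of each with the assumed CV. Plau, urokinase, had 7, 11, 31 and 17 counts, a ratio of 3.13 (1.53 to 6.9005), and Fgf7 1.55 (1.17 to 2.08). On the lower side were Vegfa at 48.7, 47.8, 33.2 and 40.5 CPM and a ratio of 0.693 (0.602 to 0.797), Icam1, an adhesion molecule, at 0.811 (0.738 to 0.892), and the metalloproteinase genes Mmp2 and Mmp3 at 0.864 (0.773 to 0.966) and 0.851 (0.814 to 0.889). Of 35 interferon and RNA sensing genes, 7 were higher, 8 lower and 20 neither. With the assumed CV, 7 of the 8 stayed lower and 1 of the 7 higher. The sensor of double-stranded RNA Ifih1 (MDA5) had 71, 109, 43 and 85 counts, a ratio of 0.438 (0.3003 to 0.629), and the DNA sensor Cgas had 52, 79, 37 and 73 counts, a ratio of 0.5201 (0.342 to 0.778). Adar, which edits double-stranded RNA, had 0.671 (0.526 to 0.852) and Tlr4 0.3901 (0.1903 to 0.751). Eif2ak2, the RNA-activated kinase PKR, was higher at 1.38 (1.16 to 1.66), as were Ifitm3 at 1.22 (1.16 to 1.28) and Irf7 at 2.097 (1.15 to 3.94). Of 18 antigen presentation genes, 3 were higher (0 with the assumed CV) and 0 lower, with B2m, the light chain of class I molecules, at 1.099 (1.05 to 1.15).

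Many genes of the ribosome, the proteasome and the respiratory chain were higher by small amounts. Of 79 ribosomal protein genes, 63 were higher (79.7%), 3 lower and 13 neither. The median log2 ratio was 0.13. TSA was the highest of the 4 libraries for 61 of them and the lowest for 0. With the assumed CV, 2 of the 63 stayed higher, Rpl32 and Rpl36a, as did 0 of the proteasome genes and 1 of the respiratory chain genes below. As shares of all members past the filter, these lie below the 4.27% of all genes. Ratios of members called higher ran from 1.03 for Rplp0 to 1.47 for Rpl32. Rpl32 itself stood at 101, 107, 158 and 153 CPM, so its value with both compounds was close to that with TSA. Rps24 stood at 1582, 1746, 2168 and 2078 CPM, a ratio of 1.24 (1.22 to 1.27). Ribosomal protein genes have many near-identical pseudogenes, and reads could be split among them. Of 37 proteasome genes, 19 were higher (51.4%) and 1 lower, with a median log2 ratio of 0.12. Psmb4, a subunit of the proteasome core, stood at 245, 243, 313 and 260.4 CPM, a ratio of 1.29 (1.22 to 1.36), and Psmb1, another, had 1.28 (1.22 to 1.36). Of 76 nuclear genes of the respiratory chain, 38 were higher and 5 lower, with a median log2 ratio of 0.10. Sdha, a subunit of complex II, stood at 41.3, 38.8, 51.3 and 43.9 CPM, a ratio of 1.32 (1.16 to 1.51), and Atp5me, of ATP synthase, had 1.24 (1.19 to 1.28). Ndufs6, of complex I, had few counts at 7, 12, 35 and 15 counts and a ratio of 3.24 (1.64 to 6.85).

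These lists hold short genes, and the direction of the difference moved with gene span over all genes. Of the 12007 compared genes with a span in the RefSeq table, those in the shortest quintile (0.068 to 7.56 kb) were higher in 23.3% and lower in 9.16%, with a median log2 ratio of 0.055. In the longest quintile (70.6 to 2975 kb) 8.99% were higher and 22.3% lower, with a median of -0.074. The median span was 3.13 kb for ribosomal protein genes, 7.13 kb for respiratory chain genes and 12.3 kb for proteasome genes. It was 83.2 kb for collagens and 83.3 kb for integrins. Taken relative to the genes of the same span quintile, the list medians were 0.080 for ribosomal proteins, 0.070 for the respiratory chain and 0.080 for the proteasome. The collagen median was then -0.16 and the integrin median -0.15. The antioxidant median went from 0.13 to 0.073, the Notch median from -0.21 to -0.14, the WNT median from -0.11 to -0.043, that of acetyltransferases from -0.099 to -0.045 and that of chondrocyte markers from -0.11 to -0.038. In all, 22 list medians changed sign or moved by over 1.5 times in this way. Whether gene span has a part in these results was not tested further.

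**Figure D5:**
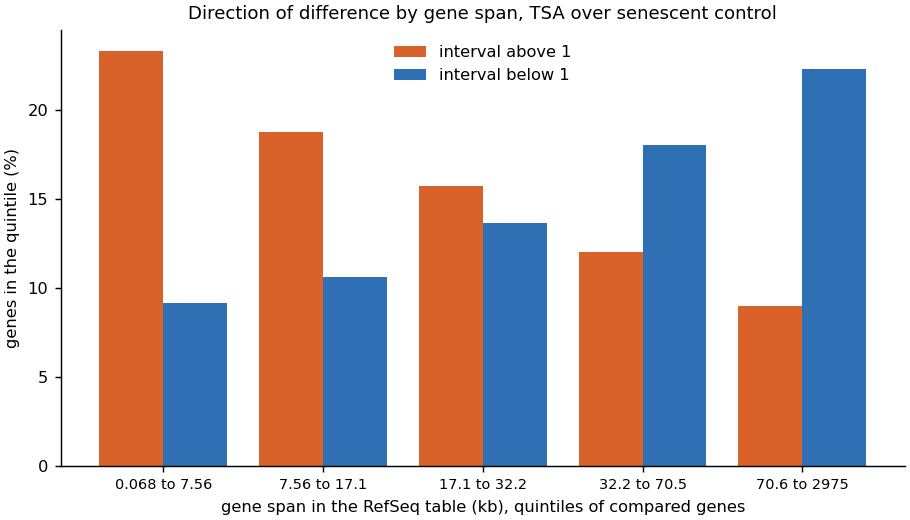
Share of compared genes (vertical axis, percent) whose 95% counting interval lay above 1 (orange) or below 1 (blue), by quintile of gene span in the RefSeq table (horizontal axis, kb). The share higher goes from 23.3% in the shortest quintile to 8.99% in the longest, and the share lower from 9.16% to 22.3%.

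Among 13 mitochondrially encoded protein genes past the filter, 7 were higher, 4 lower and 2 neither. Scaling by total counts gave 8 higher and 2 lower, and the assumed CV 0 higher and 1 lower. The ribosomal RNAs of the mitochondrion were lower. ND4, a subunit of complex I, stood at 9424, 7879, 10165 and 13089 CPM, a ratio of 1.29 (1.28 to 1.302), with both compounds still higher. ATP8 stood at 811, 693, 432 and 717 CPM, a ratio of 0.623 (0.5997 to 0.647), but it overlaps ATP6, whose ratio was 0.989 (0.9804 to 0.997), so how reads were divided between the pair is uncertain. The large ribosomal RNA mt-Rnr2 had a ratio of 0.803 (0.7995 to 0.807) and the small one, mt-Rnr1, 0.741 (0.733 to 0.7501). These RNAs are read only in part by a kit that primes on poly(A) tails.

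HOX genes, which record position along the body axis, had a median log2 ratio of 0.27, on few calls. Of 52 listed, 18 passed the filter, of which 4 were higher (22.2%), 2 lower and 12 neither, against 3 and 0 with the assumed CV. Hoxc5 had 71, 45, 80 and 52 counts, a ratio of 1.97 (1.35 to 2.91), and Hoxb4 had 16, 17, 34 and 35 counts, a ratio of 2.22 (1.21 to 4.24). Hoxa7, at more counts, stood at 33.7, 30.2, 43.9 and 40.1 CPM, a ratio of 1.45 (1.25 to 1.68). The more abundant Hoxc6 and Hoxa5 were lower at 0.899 (0.838 to 0.963) and 0.876 (0.8097 to 0.947). Of 23 polycomb and DNA methylation genes, 6 were lower and 2 higher (0 of either with the assumed CV), with a median log2 ratio of -0.19. Ezh2, the polycomb methyltransferase, had 1.21 (1.05 to 1.404), while Ezh1, its alternative, had 0.738 (0.585 to 0.929), Eed, their partner, 0.768 (0.667 to 0.883) and Dnmt1, the maintenance DNA methyltransferase, 0.797 (0.672 to 0.945).

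Glycolysis and hypoxia genes had 12 higher (36.4%), 7 lower and 14 neither of 33, against 2 and 1 with the assumed CV. Eno3, the muscle enolase, stood at 32.9 CPM for young cells, 82.3 in the senescent control, 120.1 with TSA and 41.5 with both compounds, a ratio of 1.46 (1.34 to 1.59). Its level in both senescent libraries without phenamil was well above that in the other pair. Ldha, lactate dehydrogenase A, had 1.202 (1.11 to 1.304) and Pgk1 1.12 (1.08 to 1.17), while Epas1 (HIF-2 alpha) was lower at 0.751 (0.6603 to 0.853). Immediate early genes had 7 higher, 3 lower and 19 neither of 29, against 3 and 2 with the assumed CV. Dusp6, the phosphatase that ends ERK signalling, stood at 159.7, 206, 286 and 189 CPM, a ratio of 1.39 (1.31 to 1.47). Egr1 was lower at 0.811 (0.763 to 0.863) and Fosb, on 20, 29, 7 and 19 counts, at 0.268 (0.0991 to 0.625).

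Lists of protein and lipid handling were near the background on both sides or divided, and with the assumed CV each held at most 2 members higher and 1 lower. Heat shock chaperones had 7 higher and 7 lower of 37. Hspa1a, the inducible HSP70, stood at 25.8, 22.97, 14.1 and 17.999 CPM, a ratio of 0.614 (0.496 to 0.758), while Ahsa1, an HSP90 cochaperone, had 1.32 (1.203 to 1.44). Unfolded protein and integrated stress genes had 8 higher and 6 lower of 46, with Hspa5 (BiP) at 1.06 (1.04 to 1.09). Lysosome genes had 9 higher and 10 lower of 52. Psap, the abundant prosaposin gene, had 0.849 (0.829 to 0.8703), and Naglu and Sgsh, enzymes of heparan sulfate breakdown, had 1.52 (1.22 to 1.91) and 1.66 (1.29 to 2.15). Cholesterol synthesis genes had 5 higher and 4 lower of 30, with Ebp, a sterol isomerase, at 1.45 (1.21 to 1.74).

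Markers of other cell types that reached the filter were few. Spn, the leukocyte sialoprotein CD43, had 22 counts for young cells, 24 in the senescent control, 68 with TSA and 19 with both compounds, a ratio of 3.15 (1.95 to 5.24), and Cd14, a monocyte receptor that stromal cells can carry, had 57, 64, 85 and 83 counts and 1.47 (1.05 to 2.07). With Ptpn6 above, these were high with TSA while Ptprc was at 0, and the summed level of the 7 haematopoietic markers in the table was 7.99 CPM in the senescent control and 15.7 with TSA. The epithelial keratin genes Krt7 and Krt8 were higher at 1.45 (1.16 to 1.82) and 1.2998 (1.05 to 1.605), whereas Epcam and Cdh1 were at 0 in both compared libraries. Krt7 stood at 4.42, 12.98, 18.9 and 3.62 CPM, higher in both of these senescent libraries than in the other pair. Of 10 chondrocyte markers, 4 were lower and 1 higher (0 of either with the assumed CV), with Sox9, the cartilage transcription factor, at 0.881 (0.781 to 0.993) and Hapln1, the cartilage link protein, at 1.32 (1.18 to 1.48). Of 4 adipocyte markers, Plin2, a lipid droplet protein that many cells make, was lower at 0.722 (0.651 to 0.7997) and 3 were neither. Of 4 osteoclast markers, Acp5 was higher at 1.45 (1.05 to 2.02), Nfatc1 lower at 0.828 (0.692 to 0.989) and 2 neither. The endothelial markers that passed, Erg and Egfl7, were neither, and of 2 Schwann cell markers 1 was higher and 1 neither. What part other cells had in any of these values was not tested.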

How the data were processed

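Per the labels' protocols, TRIzol RNA was made into 3' tag libraries (QuantSeq, forward kit) and read from a single end. Per the submitters' processing notes the build was mRatBN7.2, and the tools named, in no order, were HTSeq 2.0.2 and STAR 2.7.10b. How strand and duplicates were handled, and which annotation served, is not given in the sources used here. The deposited table holds raw counts per gene, whole numbers per the file headers. The deposited log2 values were checked to be log2 of the count over a library factor plus 1. They served only as an alternative.

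Counts of the 2 libraries were scaled by TMM (edgeR 4.0.16, R 4.3.3) with factors from all 4 libraries, and genes with at least 40 counts were compared. With no residual degrees of freedom (1 library a condition), edgeR's quasi-likelihood test was impossible, so ratios carry exact conditional binomial (Clopper-Pearson) intervals at 95%, and log2 ratios a prior count of 0.5 (Python 3.11.15, scipy 1.17.1, numpy 2.4.6, pandas 2.3.3, matplotlib 3.10.9). Without molecular identifiers, reads are not independent molecules. A count of 0 allows up to 3 counts. The intervals were tried on simulated Poisson counts at the observed means. These hold no spread between cultures, so they bear on counting error only. RefSeq tables of GRCr8, where 93.1% of Entrez identifiers were found, gave gene spans and promoters. No genome of the counts' build was used, so no coordinates of the genes are given.

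The comparison and the 59 gene lists were chosen with earlier results of these data known. Named were genes past 2-fold, the 20 highest and 20 lowest by interval bound with at least 100 counts in the 2 libraries, the 10 largest rises and falls in CPM, up to 8 members per list and direction, all members of lists with at most 12, and the 5 genes per direction with most counts opposite a 0. The text describes part of these, some genes are not reported here, and members with intervals that include 1 are given by count or value. A second form of the antioxidant element that had been planned was not searched. The alternatives run were scaling by total counts, by DESeq2 1.42.0 size factors and by TMM with ribosomal protein and mitochondrial genes left out, other filters, priors and size rules, assumed CVs of 0.1 and 0.2, and the deposited log2 values. A comparison within gene span quintiles and the CV of 0.1 for single lists were added after the data were seen.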

Additional observations from a re-analysis of the deposited data

How the results depend on the processing

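No paired analysis was possible because each condition is 1 library, and for the same reason no library could be left out. Scaling did not move the counts past 2-fold, 7 higher and 13 lower under TMM, DESeq2 size factors, total counts and TMM without mitochondrial and ribosomal protein genes, and gave 1882 to 2008 genes higher and 1732 to 1838 lower. Counts past 2-fold depended on the other choices. Higher genes numbered 34 with no filter and 0 with a filter of 200 counts, and lower genes 26 and 1. With the ratio alone they were 256 and 272, and at a size rule of 1.5-fold 67 and 64. The assumed CVs were computed by a normal approximation with the prior count of 0.5. With a CV of 0.1, 6 genes lay past 2-fold higher and 4 lower, and with 0.2, 1 higher and 0 lower. Intervals excluding 1 then numbered 522 higher and 512 lower at 0.1, and 157 and 147 at 0.2. Of the ratios of 1328 genes named or listed, none reversed: all kept their call under DESeq2 size factors, 4 gained and 6 lost it under TMM without mitochondrial and ribosomal protein genes, and 18 gained and 7 lost it under total counts. Each of 50 list medians was compared with the counting interval of the list's middle gene or genes, which is not an interval of the median. That of the ribosomal protein genes moved beyond this range, to 0.080 within gene span quintiles. The range is wide where the middle gene has few counts, so a median that stayed inside it is not shown to be stable. Under at least 1 alternative, 29 list medians changed sign or moved by over 1.5 times. Of these, 8 changed sign, each with a middle-gene range that included 0. They were prostaglandin genes (0.12, and -0.054 with a filter of 200 counts), corepressor complexes (-0.033, and 0.037 within span quintiles), zinc transporters, basement membrane genes, collagen processing genes, HDAC enzymes, heat shock chaperones and secreted factors. With the CV of 0.1 applied to lists, a choice made after seeing the data, 39 of 50 counts of members higher and 41 of 50 counts of members lower moved by over 1.5 times. The depth limits genes under about 40 counts, where intervals are wide, and the spread between cultures was not measured.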

Other observations

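Some of the larger differences lay in genes of no list. Faxdc2, a relative of sterol oxidases, stood at 12.3, 6.72, 14.8 and 14.1 CPM, a ratio of 2.21 (1.66 to 2.96). Cidea, a lipid droplet protein, stood at 3.79, 5.901, 11.997 and 8.76 CPM, a ratio of 2.03 (1.49 to 2.79), with the young control the lowest of the 4 libraries. Suox, sulfite oxidase, had 1.97 (1.43 to 2.73), Aox1, aldehyde oxidase, 1.704 (1.41 to 2.06), and Lyrm4, of iron-sulfur cluster assembly, 1.73 (1.48 to 2.03). Lyrm4 stood at 36.6, 24.2, 42.04 and 32.6 CPM, so TSA was above all other libraries. Pstk, which acts in making selenocysteine tRNA, had 1.95 (1.401 to 2.74), Trim8, a ubiquitin ligase, 1.799 (1.48 to 2.19), and Efhd2, a calcium-binding protein, 1.62 (1.44 to 1.82) at 50.9, 44.9, 72.7 and 46.1 CPM. The chromatin genes Mllt1, a reader of acylated histones, and Atn1, the corepressor atrophin 1, had 1.93 (1.49 to 2.51) and 1.64 (1.43 to 1.89). Other members of this ranking were Tlcd1 at 2.07 (1.43 to 3.05), Tmem11 at 1.62 (1.39 to 1.89), Zfp133 at 1.99 (1.39 to 2.89), G4 at 2.17 (1.58 to 2.99) and the mitochondrial transfer RNA Trnd at 1.78 (1.49 to 2.14).

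On the lower side, Lonp1, the protease of the mitochondrial matrix, had 89, 99, 34 and 82 counts, a ratio of 0.381 (0.2504 to 0.568). The other 3 libraries lay together above it. Adam19, a membrane metalloprotease, had 153, 136, 54 and 122 counts, a ratio of 0.441 (0.316 to 0.609), and Plcb4, a phospholipase C, had 273, 229, 109 and 267 counts, a ratio of 0.529 (0.417 to 0.667). Both had TSA as the lowest library and the other 3 within a narrower band. Snx31, a sorting nexin, had 147, 139, 56 and 62 counts, a ratio of 0.447 (0.322 to 0.614), and was nearly as low with both compounds. Cacnb2, a calcium channel subunit, had 0.413 (0.272 to 0.615), Camk2n1, an inhibitor of CaM kinase II, 0.482 (0.349 to 0.658), and the zinc finger genes Zfp532, Zfp316 and Trerf1 had 0.491 (0.381 to 0.627), 0.442 (0.297 to 0.647) and 0.444 (0.2998 to 0.647). The remaining ones were Edrf1 at 0.405 (0.251 to 0.637), Phf7 at 0.449 (0.2995 to 0.661), Cplane1 at 0.505 (0.379 to 0.667) and Tmcc2 at 0.429 (0.2696 to 0.667).

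Among abundant genes, S100a4, a calcium-binding protein of motile stromal cells, stood at 6067, 6324, 7714 and 6422 CPM, a ratio of 1.22 (1.21 to 1.23), and its relative S100a6 at 6302, 7399.8, 8302 and 5629 CPM, a ratio of 1.12 (1.11 to 1.13). Tmsb10, an actin monomer-binding thymosin, had 1.15 (1.13 to 1.17), Vim, vimentin, 1.08 (1.07 to 1.09) and the tetraspanin gene Cd63 1.17 (1.15 to 1.19). Rps26 and ND3 had 1.18 (1.16 to 1.21) and 1.12 (1.11 to 1.14).

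There were 15 genes with 0 counts in the senescent control and at least 10 with TSA, and 12 the other way. Trim6, a ubiquitin ligase, had 12, 0, 13 and 4 counts, at least 4.81-fold higher with TSA against a floor of 3 counts. Mb, myoglobin, had 12 counts with TSA and 0 in the other 3 libraries, at least 4.44-fold higher. Scn8a, a neuronal sodium channel, had 0, 0, 12 and 2 counts, and Sftpc, a lung surfactant protein, 2, 0, 12 and 4. Gpr155 had 9, 0, 12 and 4. Bcl2l14, a BCL2 relative, had 2, 18, 0 and 0 counts, at least 5.40-fold lower with TSA, and Pcdhga12, a protocadherin, 2, 16, 0 and 14, at least 4.80-fold lower. Exd1 had 3, 10, 0 and 1 counts and Hipk4, a kinase, 12, 10, 0 and 15.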
